A study of Mus musculus with 4 samples.

Results

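The proteasome is the large protease that degrades proteins tagged with ubiquitin. Its 20S core is a barrel of alpha and beta rings, in which the beta subunits encoded by Psmb5, Psmb6 and Psmb7 carry the catalytic sites. The 19S regulatory particle caps the core, and in it ATPases (Psmc genes) unfold substrates while non-ATPase subunits (Psmd genes) bind ubiquitin chains and remove them. Other members of the naming family encode activators that replace the 19S cap (Psme genes) and chaperones that help to assemble the core (Psmg genes) or the base of the 19S particle (Psmd5, Psmd9 and Psmd10). In mouse embryonic stem cells the proteasome removes regulatory and damaged proteins, and its immune forms are induced by interferon.

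The genes described here were chosen by symbol. They were all genes to which the array annotation assigns a probe set of its own under a symbol that starts with Psm, a letter from a to g and a digit, apart from the immunoproteasome genes Psmb8, Psmb9 and Psmb10. The rule took 55 of 12422 probe sets that are not array controls, which stand for 43 of 8251 genes. Of the 43, Psmc3ip and Psme3ip1 encode proteins that interact with proteasome or related proteins and are not proteasome parts, so they are given apart, and counts below are over the other 41. Those 41 hold 7 alpha subunits, 7 beta subunits, 6 ATPases, 11 non-ATPase subunits, 3 chaperones of the 19S base, 3 activators and 4 chaperones of the core, so the family is wider than the constitutive subunits alone. Psme2 was not included, because its probe sets are assigned to several genes.

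Total RNA of E14tg2a cells, a mouse embryonic stem cell line that needs no feeder layer, was measured on 4 Affymetrix arrays. Control cells and cells expressing constitutively active Akt (Akt cells, titled Akt12) were each measured with 3000 U/ml of leukemia inhibitory factor (LIF), the cytokine that holds these cells undifferentiated, and after 4 days without it. Each of the 4 groups has 1 array, so differences between arrays have no replicate check and precision is limited by the number of arrays. Whether the Akt cells are 1 clone, which vector or promoter drove Akt, and what the control cells carry were not stated in the labels. All 8 undifferentiated stem cell markers examined were above the detection floor on all 4 arrays.

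Values are intensities after quantile normalization, which gives the arrays the same distribution, with a floor at 15.8, the 40th percentile, below which values are not distinguished. A difference is a log2 difference of intensity, in which 1 is 2-fold and 0.58 is close to 1.5-fold. Probe sets of the same gene differed in their log2 difference with an SD of 0.46 for LIF withdrawal in control cells, 0.38 in Akt cells, 0.39 for Akt against control with LIF and 0.45 without LIF. That SD is the measure of technical error available here, and it does not cover differences between cultures. Most single differences described below are smaller than it or close to it.

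Promoter sequence is shown for 5 genes: the catalytic genes Psmb5 and Psmb6 because they hold the antioxidant response element core, the motif through which Nfe2l1 and Nfe2l2 are known to act on proteasome genes, Psmd4 because it holds a CCAAT box, the motif bound by NF-Y, and Psmg1 and Psme1 because they were the genes most different after LIF withdrawal in control cells, in opposite directions. Each is the 250 bases before the gene's start from RefSeq (GRCm38.p6), 5′ to 3′ on the strand of the gene, and capitals mark a motif match. They lie at chr14:54617996-54618245 on the minus strand for Psmb5, chr11:70525107-70525356 on the plus strand for Psmb6, chr3:95042615-95042864 on the minus strand for Psmd4, chr16:95990961-95991210 on the minus strand for Psmg1 and chr14:55578244-55578493 on the plus strand for Psme1.
Psmb5: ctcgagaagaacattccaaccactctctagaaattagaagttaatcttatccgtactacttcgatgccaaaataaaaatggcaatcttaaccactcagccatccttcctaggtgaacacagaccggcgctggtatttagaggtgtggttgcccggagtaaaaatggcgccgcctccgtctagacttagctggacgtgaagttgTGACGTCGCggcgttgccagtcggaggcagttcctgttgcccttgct
Psmb6: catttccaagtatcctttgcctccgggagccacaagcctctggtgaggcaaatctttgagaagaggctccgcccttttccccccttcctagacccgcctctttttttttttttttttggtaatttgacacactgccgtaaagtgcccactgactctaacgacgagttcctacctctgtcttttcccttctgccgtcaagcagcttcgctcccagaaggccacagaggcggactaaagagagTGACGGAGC
Psmd4: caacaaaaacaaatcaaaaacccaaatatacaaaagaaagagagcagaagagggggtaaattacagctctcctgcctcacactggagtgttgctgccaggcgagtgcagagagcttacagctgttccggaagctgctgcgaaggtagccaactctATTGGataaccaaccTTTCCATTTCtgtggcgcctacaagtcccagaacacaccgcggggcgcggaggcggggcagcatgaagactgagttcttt
Psmg1: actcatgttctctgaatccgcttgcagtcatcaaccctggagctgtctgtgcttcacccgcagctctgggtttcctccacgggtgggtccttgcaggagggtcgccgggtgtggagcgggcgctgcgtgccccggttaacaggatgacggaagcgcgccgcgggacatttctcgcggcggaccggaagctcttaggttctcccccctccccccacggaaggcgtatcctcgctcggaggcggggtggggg
Psme1: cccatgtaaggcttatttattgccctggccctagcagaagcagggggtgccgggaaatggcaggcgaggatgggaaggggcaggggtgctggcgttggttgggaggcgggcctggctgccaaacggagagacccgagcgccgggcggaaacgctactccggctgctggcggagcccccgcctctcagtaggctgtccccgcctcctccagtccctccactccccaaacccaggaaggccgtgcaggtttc

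Windows of 300 bases, 250 before and 50 after the start, were given for 34 of the 41 genes. The letters TGACNNNGC on either strand were found for 6 of the 34 genes (17.6%), against 14.0% of 27025 genes with a window. The 6 were Psmb5, Psmb6, Psmc6, Psmd9, Psmd12 and Psme4. CCAAT on either strand was found for 12 of the 34 genes (35.3%), against 41.1% of all genes, so the share holding either motif was near that of other genes. The core of the interferon-stimulated response element, searched on either strand and chosen after the values were seen, was found for 5 of the 34 genes (14.7%) against 3.99%. The 5 were Psmb3, Psmd4, Psmd9, Psme1 and Psmg4. After LIF withdrawal in control cells their log2 differences were -0.37, -0.64, 0.00, 1.24 and -0.29 in that order, so they did not share a direction. In Psme1 the match to this motif lies after the start, outside the stretch printed above, and in Psmd4 it is the second run of capitals. A match is a run of letters and was not tested as a site.

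Of the 41 genes, 39 were above the floor on all 4 arrays. Psmc4, an ATPase gene, and Psmd2, a scaffold gene of the 19S base, were at the floor on all arrays, where they could show no difference. Each has 1 probe set, so a missing transcript and a probe set that does not detect it cannot be told apart. The spread over arrays was narrow. The highest of the 4 arrays was a median of 1.41-fold above the lowest for the 39 genes and 1.60-fold for the 5027 genes that passed the floor throughout. For 23 of the 39 genes (59.0%) the highest value was within 1.5-fold of the lowest, against 41.0% of all genes. The ATPase gene Psmc6 was the steadiest, at 1718 in control cells with LIF, 1631 without LIF, and in Akt cells 1744 with and 1708 without LIF.

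Control cells without LIF gave the lowest of the 4 values for most proteasome genes. That array gave the lowest value for 28 of the 39 genes (71.8%), against a background of 38.2% of all genes. This count was chosen after the data were seen, and with no scaling it was 20 of 39, against 23.5%. Among the 29 genes of core and 19S subunits it was lowest for 24 (82.8%). By role, it was lowest for 5 of 7 alpha, 6 of 7 beta, 5 of 5 measured ATPase and 8 of 10 measured non-ATPase genes. The share was lower among the other roles, with 2 of 3 base chaperones, 1 of 3 activators and 1 of 4 core chaperones. The highest value was spread more widely, with 14 genes highest in control cells with LIF, and in Akt cells 14 with and 8 without LIF. The other 3, Psma3, Psme1 and Psme4, were highest in control cells without LIF. Leaving out the array of control cells without LIF, a step chosen after the data were seen, can only narrow a range. That array was the lowest or highest for a larger share of proteasome genes than of all genes. Its removal thus narrows more of their ranges by construction, and the next values are not an even comparison. Over the remaining 3 arrays the median range was 1.20-fold for the 39 genes and 1.36-fold for all 5027 genes. On these arrays 4 genes (Psmc3, Psmd9, Psme1 and Psmg2) differed by at least 1.5-fold, or 10.3%, against 33.5% of all genes.

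**Figure D1:**
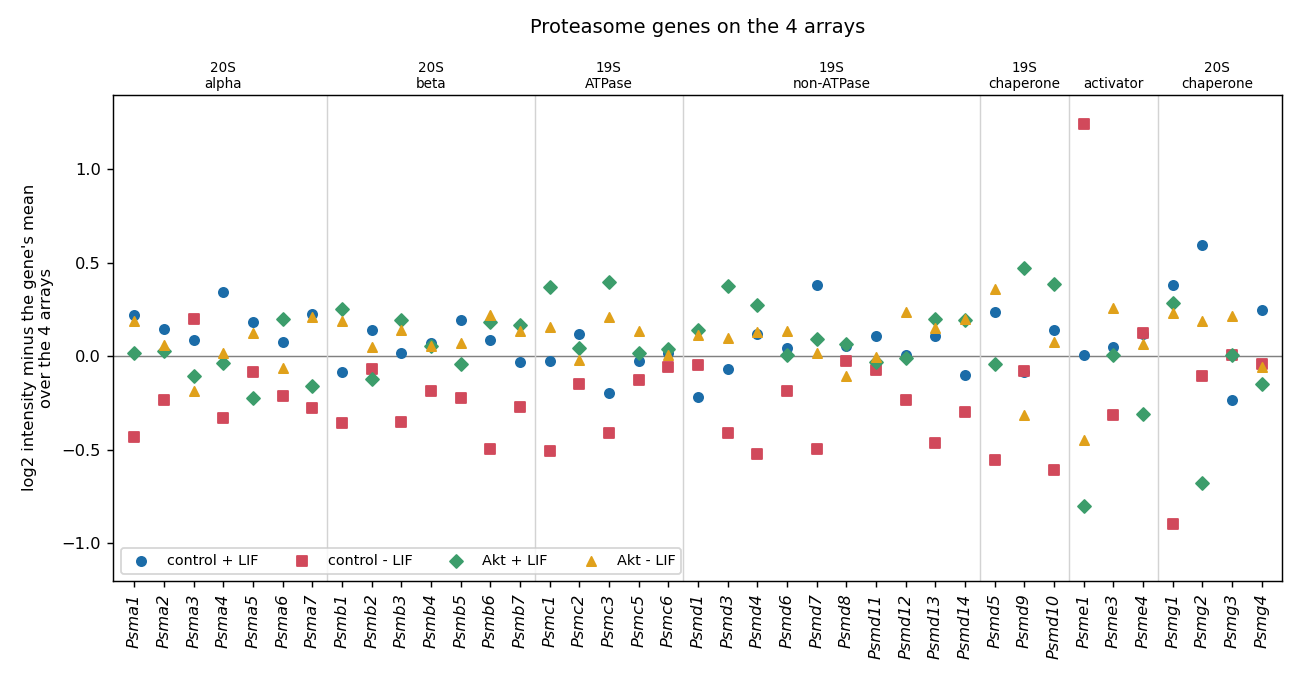
Log2 intensity of each of 39 proteasome genes on each of the 4 arrays, minus the gene's mean over the arrays, ordered by role (1 array per group, no error bars). Red squares, control cells without LIF, lie at the bottom for 28 genes, and for Psme1 that array is at the top.

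**Figure D2:**
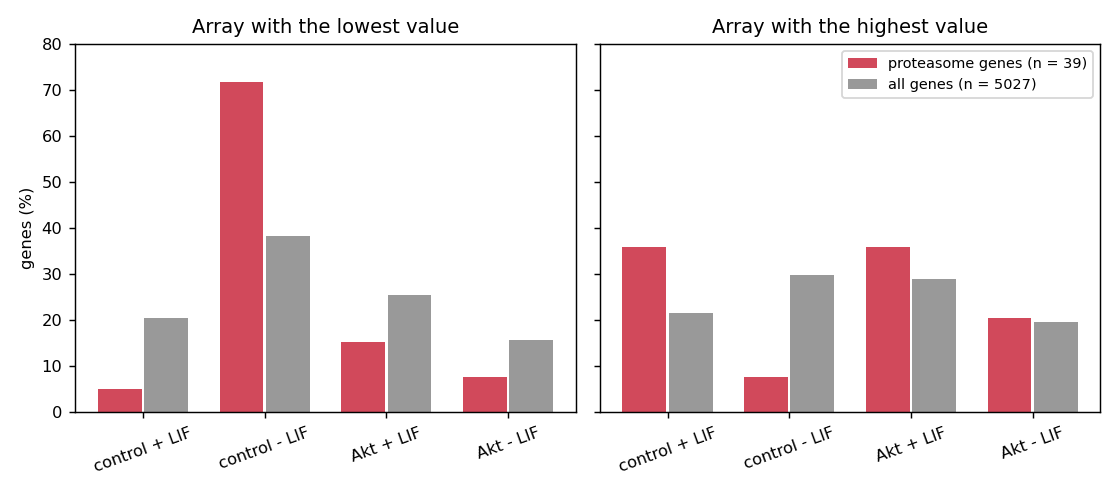
Percent of genes for which each array gave the lowest (left) or highest (right) value, for 39 proteasome genes and for the 5027 genes that passed the floor throughout. The array of control cells without LIF was lowest for 71.8% of proteasome genes and 38.2% of all genes.

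That same array differed from the others in more than proteasome genes. The 3′ to 5′ probe set ratios of control genes, which bear on RNA quality, went opposite ways. That of actin was 1.66 on it, against 2.33 for control cells with LIF and, for Akt cells, 3.04 with and 2.48 without LIF. That of Gapdh was 3.19 on it, the highest of the 4, against 3.03, 3.05 and 2.46. The summed intensity of the 8 undifferentiated stem cell markers was 4009 on it, against 10318, 10929 and 7165 in the same order. The 5 trophoblast markers summed to 2040 on it, against 421, 250 and 448. Most of that sum came from the keratin genes Krt8, Krt18 and Krt19, at 768, 627 and 538 on it. Tfap2a was at 88.95, and Cdx2 was close to the floor, at 17.95. The 9 fibroblast or feeder markers summed to 891, against 473, 554 and 475, with 8 of 9 above the floor on it and 5 of 9 on each of the others, and Postn at the floor on all 4. Of those 8, Lum at 15.875 and Vim at 19.25 were close to the floor on it. Thy1 was the 1 marker below control cells with LIF, at 27.575, against 31.65, 46.2 and 47.7 on the other arrays. The 6 endoderm markers summed to 338, against 122, 255 and 424, with Ttr at the floor throughout. The part of RNA quality and of these cell type differences in the proteasome values was not tested. In RNA from a whole culture, fewer cells of a type and less RNA per cell cannot be told apart.

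LIF withdrawal in control cells asks how the family stood after the cells lost their self-renewal signal. Of 39 genes, 33 were below 0, with a median log2 difference of -0.27, whereas 51.8% of all 5984 genes above the floor in this comparison were below 0, with a median of -0.03. The difference was under 1.5-fold for 30 of the 39 genes. At least 2-fold lower was 1 gene (Psmg1) and at least 2-fold higher 1 gene (Psme1), against a background of 6.4% and 7.39%. At 1.5-fold, 8 genes were lower, against 17.8% of all genes, and 1 was higher, against 16.4%. The count of lower genes moved with the scaling, to 15 with scaling to the hybridization controls and 25 with none. The median stayed below that of all genes in all 8 processing settings tried. With no scaling 5 genes passed 2-fold, all of them lower, where the median of all genes was -0.26. Among genes above the median level, where 38 of the 41 proteasome genes lie, the median was -0.09.

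The alpha ring genes, which form the gated outer rings of the core, had a median of -0.38. Psma4 was at 1300 in control cells with LIF, 813 without LIF, and in Akt cells 999.7 with and 1038 without LIF, a 1.60-fold lower value after withdrawal in control cells. Psma1 was at 322, 205, 279 and 315 on the same 4 arrays, 1.57-fold lower. In both genes control cells without LIF stood below the other 3 arrays. Psma2 (-0.38), Psma5 (-0.27), Psma6 (-0.29) and Psma7 (-0.51) were also below 0 in log2, and Psma3 was the one alpha gene above it, at 0.11.

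All 7 beta ring genes were below 0 after LIF withdrawal in control cells, from -0.58 to -0.20 (median -0.27). Psmb6, which encodes the subunit with caspase-like activity and whose promoter is shown above, was at 710 in control cells with LIF, 475 without LIF, and in Akt cells 761 with and 781 without LIF. Psmb5, the chymotrypsin-like subunit, was at 649.5, 486, 551.5 and 596, and Psmb7, the trypsin-like subunit, at 635.5, 537, 727 and 711. In each of the 3 catalytic genes the lowest of the 4 arrays was control cells without LIF, by 1.49-fold, 1.34-fold and 1.18-fold against control cells with LIF. A second, dimmer probe set of Psmb5 gave -0.26 where the first gave -0.42, and was lowest in Akt cells without LIF, at 37.1 against 39.6 in control cells without LIF. For Psmb1 a second probe set pointed the other way, at 0.13 against -0.27. For Psmb4 the value of -0.25 rests on 1 probe set, and its other probe sets were at the floor on all 4 arrays. With the mean of probe sets it was -0.08.

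The 5 measured ATPase genes were all below 0, with a median of -0.21. Psmc1 was at 210 in control cells with LIF, 150 without LIF, and in Akt cells 276 with and 238 without LIF. Psmc3 was at 271, 234, 409 and 359, and was thus higher in both Akt arrays than in both control arrays. All 3 probe sets of Psmc3 were higher in Akt than in control cells in each medium, with log2 differences of 0.34 to 0.59 with LIF and 0.45 to 0.62 without. In 1 of them Akt cells without LIF, at 201, lay just below control cells with LIF, at 203. None of them is a plain _at probe set (suffixes _f_at and _i_at), and _f_at marks probes shared with other sequences. Signal from related transcripts thus cannot be told apart. Suffixes other than plain _at are also on the probe sets used for Psma3, Psmb4, Psmb5, Psmb7, Psmd9, Psmd12 and Psmg3.

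Of the 10 measured non-ATPase genes, 9 were below 0 after withdrawal in control cells (median -0.24). Psmd7, which encodes the partner of the deubiquitinase Psmd14 in the 19S lid, was at 554 in control cells with LIF, 302 without LIF, and in Akt cells 454 with and 431 without LIF. Its 1.83-fold lower value in control cells was the largest among core and 19S subunits. Psmd14 itself was at 813, 708, 997 and 999, a log2 difference of -0.20. Psmd4, a receptor for ubiquitin chains, was at 474, 305, 529 and 479, or 1.56-fold lower. Psmd13, a lid subunit, was at 197, 133, 210 and 204, or 1.48-fold lower. Psmd1 was the non-ATPase gene above 0, at 0.17. Another, dim probe set of Psmd11 gave 0.14 where the other 2 gave -0.18 and -0.28.

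Assembly chaperone genes differed more widely. Psmg1, a chaperone of alpha ring assembly, was at 478 in control cells with LIF, 197 without LIF, and in Akt cells 448 with and 432 without LIF, which is 2.42-fold lower in control cells without LIF. The other 3 arrays lay within 1.11-fold of each other. Psmg2, the partner of Psmg1, was at 305, 188, 126 and 230, so that its lowest array was Akt cells with LIF. Psmd5, which holds the ATPase base during assembly, was at 343, 198, 282 and 373, or 1.73-fold lower in control cells without LIF. Psmd10, also called gankyrin, was dim, at 32.1, 19.2, 38.2 and 30.8, and 1.68-fold lower. With a floor at the 60th percentile it was at the floor on all 4 arrays. Psmd9 was at 122, 123, 180 and 104, a log2 difference of 0.00 in control cells. For Psmg3, 2 probe sets disagreed, at 0.24 and -0.48, and gave no settled direction. Psmg4 had a log2 difference of -0.29.

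Psme1 had the opposite pattern to most of the family. It encodes the alpha subunit of the PA28 activator, which interferon gamma induces together with the immunoproteasome. Its intensity was 111 in control cells with LIF, 261 without LIF, and in Akt cells 63.3 with and 80.8 without LIF, so control cells without LIF were 2.35-fold above control cells with LIF and both Akt arrays lay below both control arrays. A second probe set of Psme1 was at the floor on all 4 arrays, and with the mean of both probe sets the log2 difference was 0.62 instead of 1.24. The other activators, Psme3 and Psme4, had log2 differences of -0.36 and 0.00.

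The interferon-linked genes were placed beside Psme1. Of 9 interferon-responsive genes on the array, 7 were above the floor in control cells without LIF, and 6 of those were at least 2-fold higher there than with LIF, against 7.39% of all genes. Ifit1 and Ifit3 were at the floor on all 4 arrays. Their summed intensity was 1630 on that array, against 621 in control cells with LIF, 642 in Akt cells with LIF and 717 without LIF. Irf1, an interferon-induced transcription factor, was at 109, 230, 31.6 and 52.7 in control cells with and without LIF and Akt cells with and without it, and was named after its values were seen. Its Akt arrays both lay below both control arrays, as those of Psme1 did. The other interferon genes above the floor on all 4 arrays (B2m, H2-K1, H2-D1 and Tap1) did not share this, each with at least 1 Akt array above control cells with LIF. Tap1 was highest in Akt cells without LIF, at 92.1. The immunoproteasome gene Psmb8 was at 41.4 and 110 in control cells with and without LIF, 2.66-fold higher without, and at the floor in both Akt arrays. Psmb10 was at 106, 113, 53.0 and 86.4, and Psmb9 was at the floor on all 4. The part of an interferon response in the value of Psme1 was not tested.

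**Figure D3:**
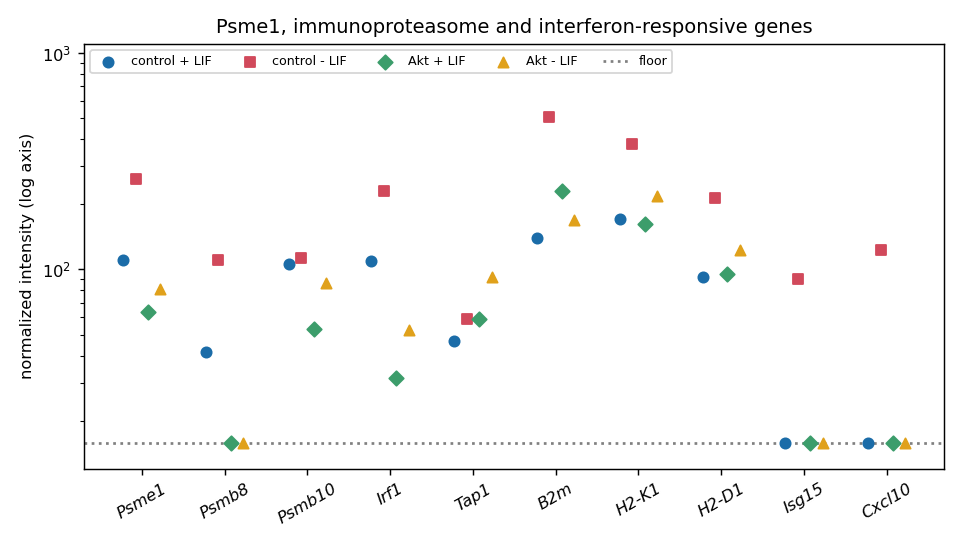
Normalized intensity (log axis) of Psme1, 2 immunoproteasome genes and 7 interferon-responsive genes on the 4 arrays, 1 point per array, with the floor dotted. Psme1 at 261 and Psmb8 at 110 were highest in control cells without LIF and lower in both Akt arrays. Psmb9, Ifit1 and Ifit3, at the floor on all 4 arrays, are not shown.

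LIF withdrawal in Akt cells asks the same of cells with active Akt. Of 39 genes, 21 were above 0 and 18 below, with a median of 0.00, against a median of 0.01 and 51.0% above 0 for 5945 genes. Scaled to the hybridization controls, 31 of 40 genes above the floor were below 0 with a median of -0.14, where that of all genes was -0.12. No gene was 2-fold different, against a background of 6.66% (3.01% higher, 3.65% lower). At 1.5-fold, Psmg2 was 1.82-fold higher and Psmd9, at 180 with LIF and 104 without, 1.73-fold lower, against 10.8% and 10.7% of all genes. Psmd9 has 1 probe set, which is not a plain _at one, and with plain _at probe sets no gene was 1.5-fold lower. The SD of the log2 differences was 0.27 over the 39 genes and 0.51 over the 5027 genes measured above the floor throughout. In control cells the same SDs were 0.40 and 0.71.

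The responses of both lines come from separate arrays, but their difference includes the array of control cells without LIF. It is thus not a separate observation of the low values there. The response in Akt cells was above that in control cells for 33 of 39 genes, with a median difference of 0.36, against 52.1% and a median of 0.04 among 5027 genes. Genes below 0 in both lines numbered 15, those below 0 in control and above 0 in Akt cells 18, those above in both 3 and those above in control and below in Akt cells 3. The difference was widest for Psmg2, at 1.56. It was 1.22 for Psmg1 and 1.19 for Psmd5, and it was the most negative for Psme1, at -0.88. With 4 arrays the difference between the lines has no residual error and was not tested.

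**Figure D4:**
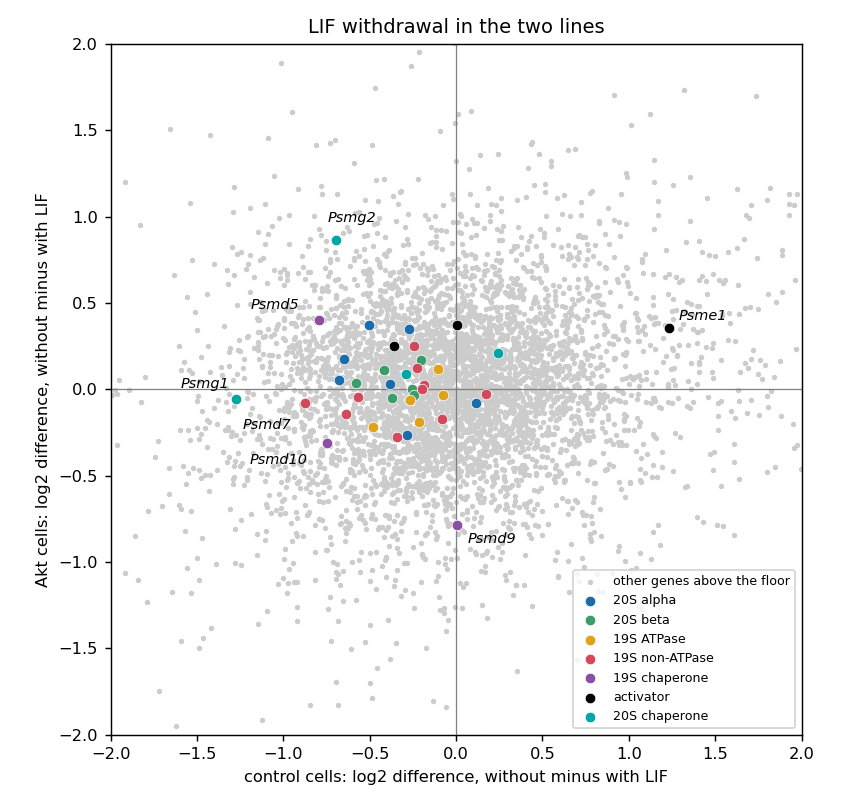
Log2 difference without minus with LIF in control cells (x) and Akt cells (y), 1 point per gene, for 39 proteasome genes coloured by role over the other genes with values above the floor throughout (119 of 5027 genes lie outside the axes). On the x axis 33 of the 39 proteasome genes lie left of 0, and on the y axis 21 lie above it.

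Akt cells were also set against control cells in each medium. With LIF, 18 of 39 genes were above 0 and 21 below, with a median of -0.02 against 0.01 for all 5938 genes. With no scaling 38 of 39 were below 0, where the median of all genes was -0.52. Psmg2 was 2.41-fold lower in Akt cells, the 1 gene past 2-fold, against a background of 7.14% (3.64% lower, 3.5% higher). At 1.5-fold, Psmc3 was higher (1.51-fold) and Psme1 lower (1.75-fold) besides, against 11.5% and 11.8% of all genes. With no scaling 20 genes were lower and none higher at 1.5-fold, and with the mean of probe sets neither Psmc3 nor Psme1 passed it. By role the medians after quantile normalization were -0.21 for alpha genes, 0.10 for beta genes and 0.04 for ATPase genes. Of the 7 alpha genes 6 were below 0, the furthest being Psma5 at -0.41.

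Without LIF, 33 of 39 genes were higher in Akt cells than in control cells, with a median of 0.32, against 55.0% and a median of 0.06 for 6009 genes. With no scaling 24 of 39 were higher, with a median of 0.09 where that of all genes was -0.23. This comparison uses the same array of control cells without LIF as the withdrawal in control cells, so it is not a separate observation of the low values there. Psmg1 was 2.19-fold higher and Psme1 3.23-fold lower in Akt cells, against a background of 5.87% and 8.12%. At 1.5-fold, where 31.7% of all genes differed, 9 genes were higher, against 16.7% of all genes, namely Psmg1, Psmd5 (1.88-fold), Psmb6 (1.64-fold), Psmd10 (1.60-fold), Psmc1 (1.58-fold), Psmd4 (1.57-fold), Psma1 (1.54-fold), Psmc3 and Psmd13 (both 1.53-fold). With no scaling 2 genes were 1.5-fold higher. Psme1 was the 1 gene lower, against 15%.

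An additive model of line and LIF was fitted over 6258 genes with limma. For LIF withdrawal over both lines it called none of the 39 genes at an adjusted p of 0.05, against 0.304% of all genes, and limma with a mean-variance trend called none either. At an unadjusted p under 0.05 it held 1 of 39, against 9.32%, and with the trend 0 of 39. That gene was Psme1, with a log2 coefficient of 0.79 ± 0.35 (SE, 4 arrays), higher without LIF in both lines, and an adjusted p of 0.53 from limma. For Akt over both media limma also called none, against 0.623%, with or without the trend, and 1 gene at an unadjusted p under 0.05, against 9.64%, in both forms. That was again Psme1, lower in Akt cells in both media, with a coefficient of -1.25 and an adjusted p of 0.20 from limma. The LIF coefficient was below 0 for 30 of 39 genes (50.8% of all genes), and the Akt coefficient above 0 for 29 (53.8% of all genes). Each coefficient averages 2 comparisons, of which 1 uses the array of control cells without LIF. The LIF medians were -0.27 in control and 0.00 in Akt cells, and the Akt medians 0.32 without and -0.02 with LIF. Neither count is thus a separate observation of the low values on that array. The error behind the limma p-values is the difference between the lines' responses to LIF, pooled by limma with that of all genes. It is not a spread between separate cultures. For genes whose responses differed between the lines, such as Psmg2, Psmg1 and Psmd5, that difference counts as error. The lack of a call does not show that they were unchanged.

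Other genes of the ubiquitin-proteasome pathway, listed together with regulators of proteasome genes, went both ways after LIF withdrawal in control cells. The list mixes groups that differed, so its median does not stand for each of them. The 11 regulators had a median of 0.22, and the immunoproteasome genes 0.75 over 2 above the floor. The median was 0.34 for 3 subunits and assembly factors outside the naming rule. It was -0.05 for 4 deubiquitinases and ligases and -0.02 for 7 shuttle and segregase genes. Of all 28 listed genes on the array, 26 were above the floor in that comparison, 15 above 0 and 11 below. Their median was 0.11, against 48.1% above 0 and a median of -0.03 for all genes. Psmb8 was the 1 gene past 2-fold, against 13.8%. Named for their role, Sem1, a 19S subunit outside the naming rule, was at 831 in control cells with LIF, 1051 without LIF, and in Akt cells 898 with and 960.5 without LIF, and the core assembly factor Pomp at 655, 612, 579 and 714. Ecpas, which encodes a proteasome-binding scaffold, was at 81.5, 91.3, 40.6 and 77.5, and was 2.01-fold lower in Akt than in control cells with LIF. The regulator Nfe2l1 was at 133, 168, 203 and 165, and Nfe2l2 at 277, 199, 443 and 263, with control cells without LIF the lowest of the 4 for Nfe2l2 and not for Nfe2l1. No probe set of the array was assigned singly to a ubiquitin gene or an E1 enzyme gene of the list. Among all 28 genes, at least 2-fold lower in Akt cells were Psmb8 and Ecpas with LIF, against 3.64% of all genes, and Psmb8 without LIF, against 8.12%.

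Psmc3ip, which encodes a recombination factor, was at 36.5, 29.0, 42.2 and 40.6 and Psme3ip1 at 199, 152, 224 and 235 on the same 4 arrays. Both were lowest in control cells without LIF, like most of the family.

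**Figure D5:**
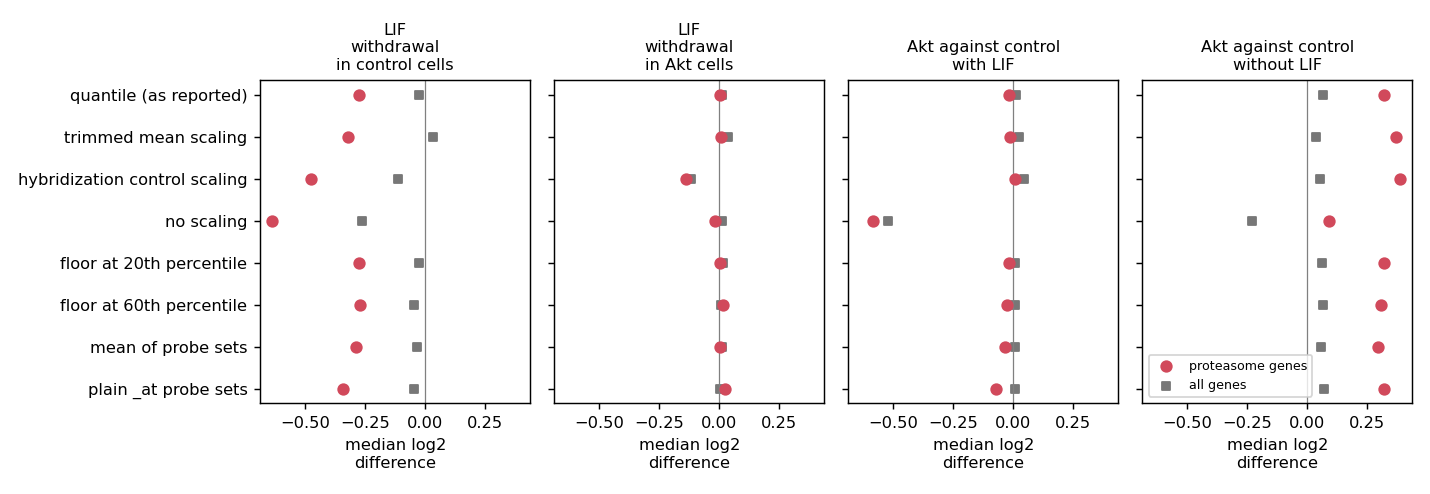
Median log2 difference of proteasome genes (red circles) and of all genes (grey squares) in each of the 4 comparisons (panels), under the reported processing and 7 alternatives (rows). In the first panel proteasome genes lie left of all genes in each row, at -0.27 against -0.03 as reported.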

How the data were processed

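The 4 arrays of the series were used through 1 deposited table. The deposited values look like linear intensities, and how the authors made them (software, scaling) is not given in the sources used. The 2% trimmed means differed by 1.51-fold, over the 10% limit set for using the table as deposited, so the 12422 probe sets other than array controls underwent quantile normalization (R 4.3.3, limma 3.58.1), values under the 40th percentile were set to it, and log2 was taken. Of these probe sets 10833 had 1 gene symbol, 396 several and 1193 none, and symbols were updated through a RefSeq table of GRCm38.p6. The probe set with the highest mean stood for a gene. With 1 array per group, differences were counted at 2-fold and 1.5-fold among genes that exceeded the floor on either array. Limma (lmFit, eBayes, two-sided, Benjamini-Hochberg over 6258 genes) had 1 residual degree of freedom, with the lines' difference in response as error. The limma fit and the 2-fold count were tried on simulated gene values with the same LIF effect in both lines. Normalization, the choice of probe set and responses that differ between the lines were not tried in that way. Named are genes past 1.5-fold in any comparison, the catalytic subunits, genes with disagreeing probe sets, and other pathway genes past 2-fold, and other members are named as examples of their role. The members and lists were chosen with earlier results of these data known.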

Additional observations from a re-analysis of the deposited data

Results flagged for a closer look

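Psmg2, the core assembly chaperone, differed between the lines in its response to LIF withdrawal. It was 1.62-fold lower in control cells and 1.82-fold higher in Akt cells, so the responses were apart by 1.56 in log2. Each line has 1 array per medium and the difference was not tested. Its lowest value was on the array of Akt cells with LIF, at 126, and Psmg2 has 1 probe set.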

How the results depend on the processing

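The alternatives were other scalings, floors and probe set rules, a 1.5-fold threshold, limma with a trend, and counting the interacting proteins' genes. That last one, the count of genes lowest in control cells without LIF and the range without that array were chosen after seeing the data. Of 102 recomputed values, 92 stayed within 1.5 times of the count or within 1 SD between probe sets of the median. That SD (0.38 to 0.46) is wider than each median, so a median that fell to 0 would still count as within it. With no scaling the medians of -0.27 and 0.32 became -0.64 and 0.09 and were counted so. Counts of 0 that stayed 0 are also among the 92, which therefore do not show that the medians are stable. After LIF withdrawal in control cells the count past 2-fold went from 2 to 5 with no scaling, 1 with the mean of probe sets and 9 at 1.5-fold. In Akt cells it went from 0 to 2 at 1.5-fold. For Akt against control with LIF it went from 1 to 4 with no scaling and 3 at 1.5-fold, and the median went to -0.59 with no scaling, where the median of all genes was -0.52. Without LIF the count went from 2 to 1 with no scaling, 1 with the mean of probe sets and 10 at 1.5-fold. Scaling moved the median of all genes, to -0.12 in both withdrawals with hybridization control scaling and to -0.26 in control cells with no scaling. Relative to all genes, the proteasome median after withdrawal in control cells lay between -0.37 and -0.23 over the 8 settings. Control cells without LIF gave the lowest value for 20 of 39 genes with no scaling (23.5% of all genes) and for 69.2% to 79.5% of genes in the other settings. The cause of these shifts was not tested. Leaving out a replicate was not possible with 1 array per group.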
